A study of Mus musculus with 12 samples.

Results

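The 10 genes described here encode the NF-κB subunits and the inhibitors and regulators that NF-κB itself switches on: Nfkb1, Nfkb2, Rel, Rela, Relb, Nfkbia, Nfkbie, Nfkbiz, Tnfaip3 and Bcl3. They were taken as the rows of the normalized expression table whose gene name equals a listed symbol, and all 10 were present, each with 1 probe, among 27676 gene names. The RNA came from PUER cells. This mouse line of myeloid progenitors lacks its own PU.1 and expresses a fusion of PU.1 with the estrogen receptor's hormone-binding domain, so that 4-hydroxytamoxifen (4-OHT) activates the fusion. The 6 control arrays came from cells infected with the retroviral vector MIGR1, which expresses GFP alone, and the 6 others from cells labelled as carrying MIGR1 with β-catenin-S33Y, whose changed serine stabilises the protein. On day 5 of infection the cells with GFP were sorted, and RNA was taken either at once (0 h) or following 24 h in 10 nM 4-OHT. Each of the 4 groups has 3 arrays, called A, B and C here as in the labels. All 4 groups share the PUER background and a retroviral infection. No group was kept for 24 h without 4-OHT among the samples analysed here, so 4-OHT and time in culture cannot be told apart. Whether the 3 arrays per group stand for separate cultures is not in the labels, so the p-values below rest on variation among samples that may be technical.

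NF-κB is a set of dimers built from the Rel-homology proteins RelA, RelB, c-Rel, p50 and p52. The last 2 are cut from the longer precursors p105 (Nfkb1) and p100 (Nfkb2). In resting cells IκB proteins such as IκBα (Nfkbia) and IκBε (Nfkbie) hold the dimers in the cytoplasm. An IκB kinase marks IκBα for the β-TrCP ubiquitin ligase, the same ligase that removes β-catenin when its N-terminal serines are phosphorylated, and S33 is a serine of that site. A separate, slower route runs through the kinase NIK (Map3k14), which is kept low by TRAF3, and leads to p52 and RelB. Released NF-κB induces several of its own inhibitors, and the genes of tumour necrosis factor and other inflammatory mediators are among its best known targets in macrophages.

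The promoters are shown because the feedback in this family runs through the DNA site of NF-κB, the κB motif. RefSeq promoter windows (build GRCm38.p6, 250 bases before to 50 bases after the annotated start) were at hand for 7 of the 10 genes, in 10 windows, since some genes have several starts. Nfkb1, Relb and Nfkbiz had no window. A match to the κB consensus of 10 bases, searched on both strands, was present in 8 of the 10 windows, against 8.46% of 32851 windows of all genes. By gene, 6 of the 7 had a match. The windows of both later Nfkb2 starts overlap, and the same κB match (GGGACTTTCC) lies in each. Matches at 2 or more positions, overlapping positions included, were present in 3 of the genes and in 1.22% of all windows. Both percentages count windows and not genes. Rela was the gene without a match. A match describes the letters of the window and is not a measured binding site. In the lines that follow, all read 5′ to 3′ on the gene's own strand, capitals mark the κB matches. Nfkbia lies on the minus strand of chromosome 12 (chr12:55492598-55492897), Nfkbie on the plus strand of chromosome 17 (chr17:45555450-45555749) and Bcl3 on the minus strand of chromosome 7 (chr7:19822706-19823005). For Nfkb2 the most upstream of 3 starts is shown (plus strand, chr19:46304487-46304786), and for Tnfaip3 the upstream of both (minus strand, chr10:19015361-19015660). Rela is shown as the gene with no match (plus strand, chr19:5637291-5637590).
Nfkbia: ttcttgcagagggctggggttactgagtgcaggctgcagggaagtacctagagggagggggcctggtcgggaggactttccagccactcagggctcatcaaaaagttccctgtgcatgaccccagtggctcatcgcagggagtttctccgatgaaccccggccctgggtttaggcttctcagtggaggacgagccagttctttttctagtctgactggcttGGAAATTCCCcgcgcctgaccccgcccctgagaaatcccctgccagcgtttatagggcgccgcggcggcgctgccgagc
Nfkbie: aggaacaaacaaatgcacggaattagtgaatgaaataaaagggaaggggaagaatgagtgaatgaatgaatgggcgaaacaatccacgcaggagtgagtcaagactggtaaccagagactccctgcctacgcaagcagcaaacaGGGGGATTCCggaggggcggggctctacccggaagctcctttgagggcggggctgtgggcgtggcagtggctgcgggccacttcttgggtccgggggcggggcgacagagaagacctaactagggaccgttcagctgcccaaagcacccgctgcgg
Nfkb2: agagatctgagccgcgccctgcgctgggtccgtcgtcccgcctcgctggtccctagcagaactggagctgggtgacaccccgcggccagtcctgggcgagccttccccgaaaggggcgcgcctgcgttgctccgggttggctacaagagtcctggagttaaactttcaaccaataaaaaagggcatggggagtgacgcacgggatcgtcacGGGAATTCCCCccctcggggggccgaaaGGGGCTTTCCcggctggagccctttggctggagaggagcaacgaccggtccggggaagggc
Bcl3: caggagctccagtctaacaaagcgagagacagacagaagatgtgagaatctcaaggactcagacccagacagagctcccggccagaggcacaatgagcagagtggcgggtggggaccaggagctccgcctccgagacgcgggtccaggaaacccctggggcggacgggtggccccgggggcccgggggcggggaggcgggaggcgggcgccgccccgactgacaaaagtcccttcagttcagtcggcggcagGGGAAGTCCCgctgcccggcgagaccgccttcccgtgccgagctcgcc
Tnfaip3: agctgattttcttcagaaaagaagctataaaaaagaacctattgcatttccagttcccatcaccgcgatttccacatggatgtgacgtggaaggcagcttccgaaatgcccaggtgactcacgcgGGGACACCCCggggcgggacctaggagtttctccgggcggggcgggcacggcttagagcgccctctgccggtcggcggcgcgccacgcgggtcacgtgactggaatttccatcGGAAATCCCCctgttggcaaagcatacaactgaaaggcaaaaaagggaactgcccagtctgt
Rela: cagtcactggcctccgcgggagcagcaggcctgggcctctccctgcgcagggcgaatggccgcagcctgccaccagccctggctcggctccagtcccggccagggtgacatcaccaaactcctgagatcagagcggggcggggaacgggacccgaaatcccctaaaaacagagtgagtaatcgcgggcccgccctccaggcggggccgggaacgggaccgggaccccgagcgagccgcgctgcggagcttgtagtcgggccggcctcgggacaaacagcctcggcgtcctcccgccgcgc

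In Nfkb2 the capitals of the first run span 2 overlapping matches, and a further match follows it. In the window of a later Nfkb2 start (chr19:46305445-46305744) the bases GGGACTTTCC, the letters of the κB site of the immunoglobulin kappa enhancer, begin at position 11 of the transcript. The window of Rel (chr11:23770920-23771219) held overlapping κB matches and the only member match to GAGGAAGT, letters that PU.1 and related Ets factors bind, which was present in 3.20% of all windows. CTTTGAT, letters that the β-catenin partners TCF and LEF bind, matched in none of the 10 windows and in 3.73% of all windows, both strands searched. No match says only that these letters are not in these windows.

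**Figure D1:**
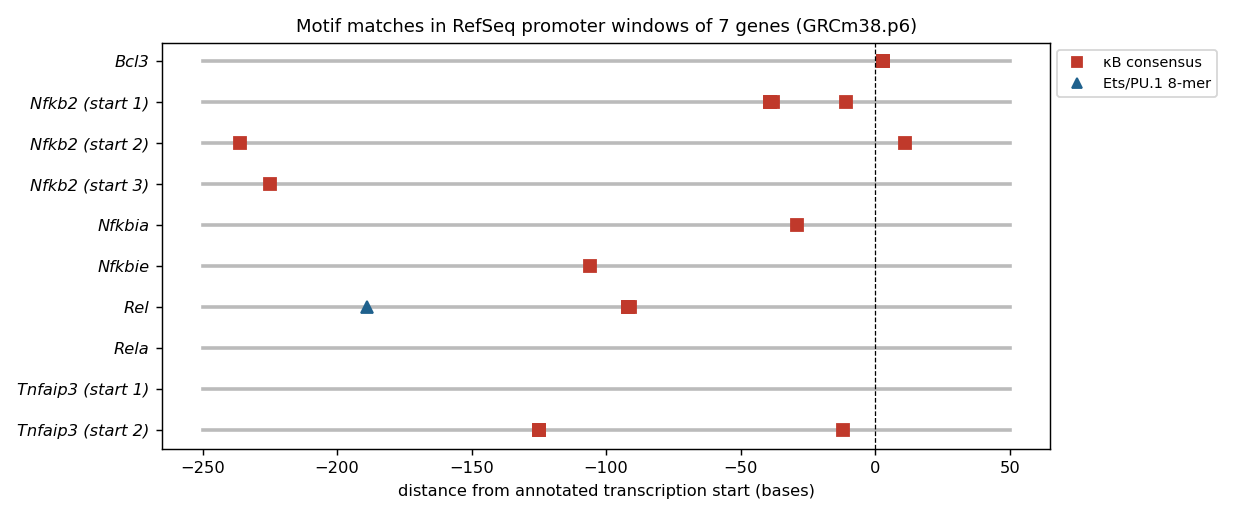
Positions of motif matches along the RefSeq promoter windows of 7 genes, in bases from the annotated transcription start (dashed line), where squares mark κB consensus matches and the triangle marks the match to GAGGAAGT. Of the 10 windows, 8 hold a κB match, and those of Rela and of the downstream Tnfaip3 start hold none.

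The values, normalized by the authors, lie on a log2 scale as their range shows. The median scanned intensity of an array was 133.5 to 208. A bound of background signal was set on each array at the mode of its values plus 3 standard deviations of the values below the mode (7.30 to 7.55), and 47.2% to 50.5% of gene names lay above it. Of 8 myeloid markers, 7 were above background on all arrays of both 0 h groups and 8 on all arrays of both 24 h groups; Ptprc, the gene of CD45, lay below background on all arrays at 0 h. Ctnnb1, the gene of β-catenin, read 13.87, 13.90 and 13.82 in control cells at 0 h and 13.85, 13.78 and 13.99 in β-catenin-labelled cells, a difference of 0.01 ± 0.09 (limma adjusted p = 0.949). Where its probe lies was not known here, so whether it can read the vector's transcript was not tested, and it checks nothing about the label. Below, ± is the standard error of a log2 change from a limma fit to all 12 arrays, n = 3 arrays per group, and a gene is called changed at an adjusted p below 0.05 over all 22461 genes kept.

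Markers of other cell types moved with these groups. Of 8 macrophage markers, 8 rose with 4-OHT in control cells and 7 in β-catenin-labelled cells, against 11.9% and 8.02% of all genes. Csf1r, among the 7, lay below background on all arrays of both β-catenin-labelled groups, so its rise is not measured. In β-catenin-labelled cells Adgre1, the gene of a macrophage surface receptor, read 8.05 to 8.24 at 0 h and 11.95 to 12.37 at 24 h. In control cells it read 8.95 to 9.17 and 14.74 to 14.83. Between vectors 4 of the 8 were lower at 0 h and 5 at 24 h. Of 5 tested eosinophil markers, 4 were higher in β-catenin-labelled cells at both times, and the log2 summed level of the list of 6 was 16.17 to 16.58 against 9.07 to 10.02 in control cells at 0 h. At 24 h it was 16.16 to 16.52 against 10.18 to 11.69. The highest of the 6 genes in β-catenin-labelled cells was Prg2 (mean 15.97 at 0 h and 16.06 at 24 h). It was at the scan ceiling of 65535 on all 6 of these arrays. Il5ra and Siglecf lay below background on all 12 arrays. Of 8 mast cell and basophil markers, 4 were higher in β-catenin-labelled cells at each time. At 0 h the 4 include Tpsb2, which lay below background on all 12 arrays. Of 6 neutrophil markers, 1 rose and 2 fell with 4-OHT under each vector, against 22.7% and 14.3% of all genes called. Camp and Ngp fell under both vectors, but the gene that rose differed. In control cells it was Ltf, below background on 3 arrays at 0 h and 2 at 24 h. In β-catenin-labelled cells it was Mpo, with 3 arrays at the scan ceiling. S100a8 and S100a9 were at the ceiling on every array. The B cell markers Cd79a, Cd79b, Pax5 and Ms4a1 lay below background on all 12 arrays. Of 7 tested erythroid and megakaryocyte markers, 3 were higher in β-catenin-labelled cells at 0 h and 4 at 24 h. Over all genes 4.38% were higher and 6.62% lower in β-catenin-labelled cells at 0 h, and 8.68% and 9.88% at 24 h. In these bulk samples fewer cells of a type and less RNA per cell cannot be told apart. The part of these shifts in the values of the members was not tested.

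The main pattern was that the family did not move as a unit with 4-OHT. Between vectors, all 5 members called at each time were lower in β-catenin-labelled cells. In control cells Nfkbie rose 3.32-fold, Relb 2.20-fold and Nfkb2 1.45-fold with 4-OHT, while Nfkbiz fell 1.91-fold and Nfkbia 1.42-fold. In β-catenin-labelled cells Nfkbia was 2.52-fold lower than in control cells before 4-OHT and 1.62-fold lower after it. Rela was called in none of the 5 comparisons, and Rel lay below background on all 12 arrays, so no level or fold is given for it. The scanned intensity of Nfkbia reached 53855, below the scan ceiling of 65535, and no member was at the ceiling on any array.

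**Figure D2:**
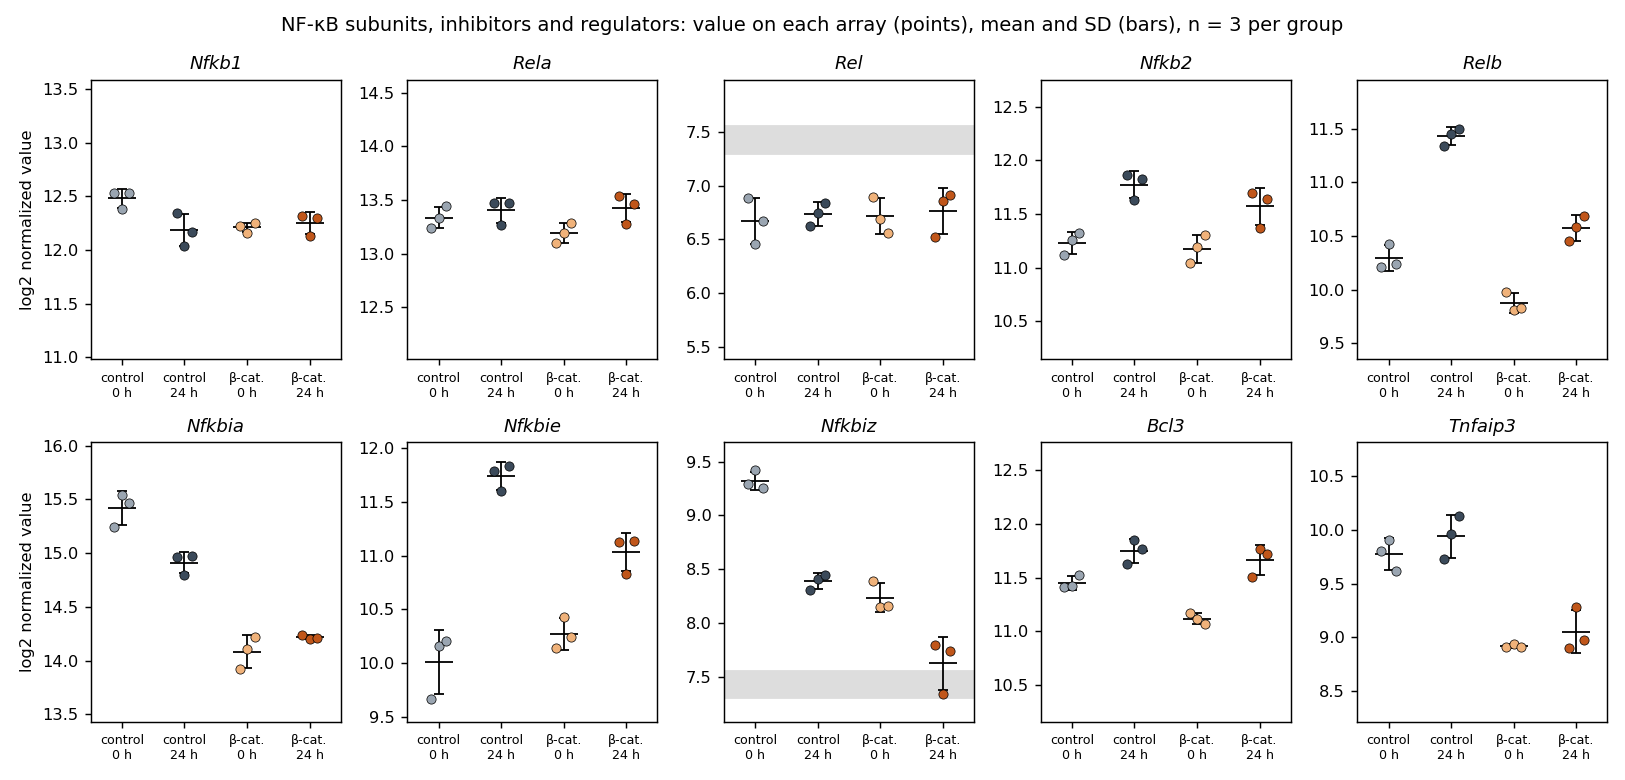
Log2 normalized value of each of the 10 genes on each array (points) in the 4 groups, with the mean and SD of 3 arrays as bars and the range of background bounds (7.30 to 7.55) in grey where it falls in view. Relb and Nfkbie are highest in control cells at 24 h, Nfkbia and Nfkbiz are highest in control cells at 0 h, and Rel lies below background throughout.

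The 4-OHT response of control cells gives the members that differed between 0 h and 24 h in 4-OHT. The part of the PU.1 fusion in these changes cannot be told apart from that of time in culture. Of the 10 genes, 4 rose (Nfkb2, Relb, Nfkbie and Bcl3) and 3 fell (Nfkb1, Nfkbia and Nfkbiz), against 22.7% of all genes called in either direction (11.9% higher and 10.8% lower). The median log2 change of the 10 was 0.12, beside -0.005 over all genes tested. Scaling by the 75th percentile moved the median of all genes to -0.12 and turned the share of calls that were higher from 52.5% to 38.2%; under it 5 of the 10 were called, with Nfkb1 and Bcl3 lost. The 2 groups did not overlap for 7 of the 10, against 35.5% of all genes.

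In β-catenin-labelled cells the same comparison called 5 of the 10, with 4 higher (Nfkb2, Relb, Nfkbie and Bcl3) and 1 lower (Nfkbiz), against 14.3% of all genes in either direction (8.02% higher and 6.32% lower). Groups did not overlap for 5 of the 10, against 32.7% of all genes. The median log2 change of the 10 was 0.18, beside 0.016 over all genes. Of all calls 55.9% were higher, but 46.4% with the 75th percentile scaling and 49.1% with normexp and quantile normalization. Both responses use separate arrays. Nfkbia changed by 0.13 ± 0.11 here (adjusted p = 0.486; 95% interval -0.10 to 0.37) and Nfkb1 by 0.04 ± 0.10 (adjusted p = 0.846).

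At 0 h the comparison of vectors describes the starting state of the cells. All 5 called members were lower in β-catenin-labelled cells (Nfkbia, Nfkbiz, Tnfaip3, Relb and Bcl3), against 11.0% of all genes called (6.62% lower and 4.38% higher). The median log2 difference of the 10 was -0.31, beside 0.006 over all genes. The count was 3 of 10 without control array B, without β-catenin-labelled array B or without β-catenin-labelled array C at 0 h. Groups did not overlap for 6 of the 10, against 33.3% of all genes. This comparison shares its control arrays at 0 h with the 4-OHT response of control cells.

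At 24 h, 5 of the 10 were again lower and 0 higher in β-catenin-labelled cells (Relb, Nfkbia, Nfkbie, Nfkbiz and Tnfaip3), against 18.6% of all genes called (9.88% lower and 8.68% higher). The median log2 difference was -0.45, beside 0.026 over all genes. Under the 75th percentile scaling 59.9% of all calls were higher and with normexp and quantile normalization 54.2%, against 46.8% with the deposited normalization, and 5 members were called under each. The count was 5 in each of the 21 alternative settings tried. Groups did not overlap for 5 of the 10, against 31.8% of all genes.

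**Figure D3:**
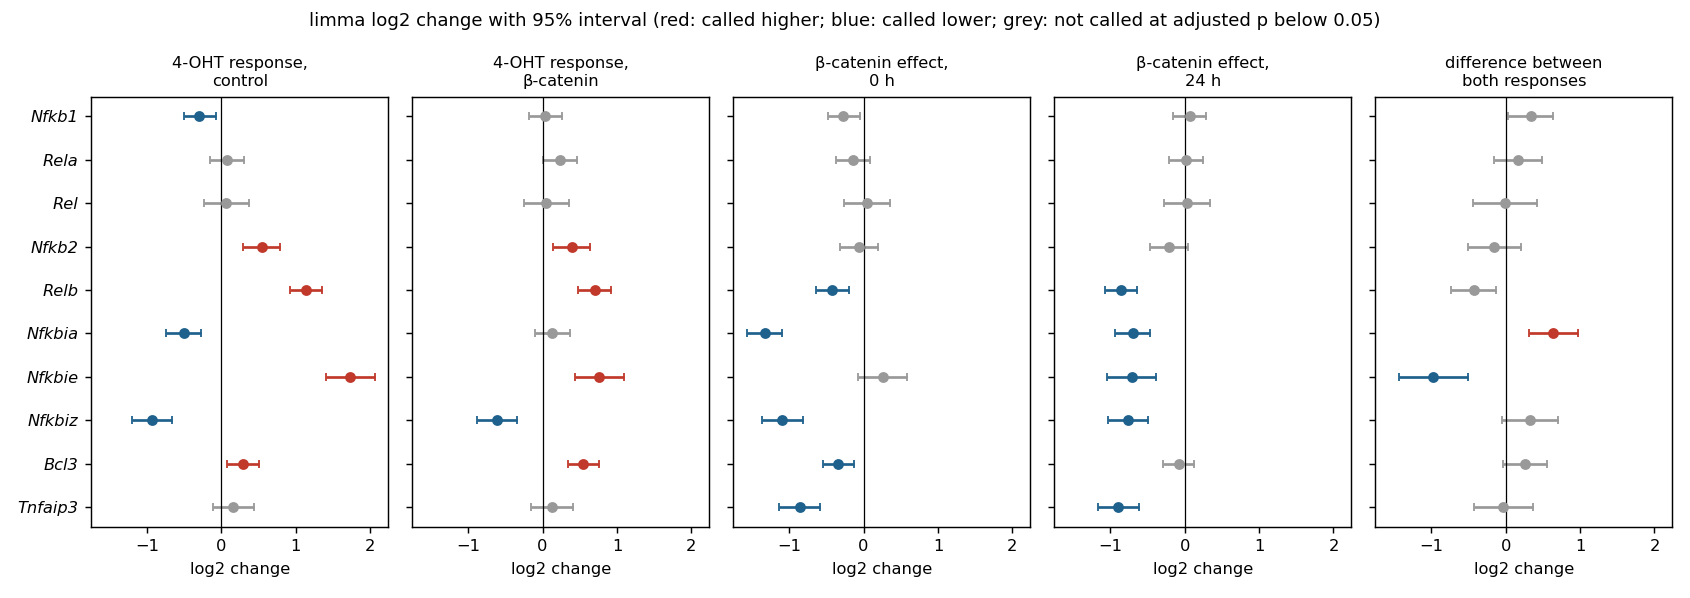
Log2 change of each of the 10 genes in the 5 comparisons, as limma estimates (points) with 95% intervals (bars), red where called higher, blue where called lower and grey where not called. The 5 calls in each β-catenin comparison are all on the lower side, while the 4-OHT responses hold calls on both sides.

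Among the subunits of the classical route, RelA carries the transactivation domain of the usual p50:RelA dimer. Rela read 13.24, 13.33 and 13.44 in control cells at 0 h and 13.47, 13.27 and 13.47 at 24 h. In β-catenin-labelled cells it read 13.10, 13.19 and 13.29 at 0 h and 13.54, 13.28 and 13.46 at 24 h. The groups overlapped in each pair of neighbours by level. The changes ranged from -0.14 ± 0.10 to 0.23 ± 0.10 over the comparisons of 2 groups (adjusted p = 0.185 to 0.92). The 95% intervals reached from -0.37 to 0.46. That joint range holds the Bcl3 changes called in control cells (0.29) and at 0 h (-0.34). It does not hold the Bcl3 rise in β-catenin-labelled cells (0.55).

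Nfkb1, the gene of p105 and p50, read 12.53, 12.38 and 12.53 in control cells at 0 h, above all other groups, whose arrays lay between 12.04 and 12.34. It fell by 0.30 ± 0.10 in control cells with 4-OHT, a small change just past the threshold (adjusted p = 0.0496). The call was lost in 10 of the 12 fits that left out 1 array (adjusted p = 0.0567 to 0.184) and kept without control 24 h array A or β-catenin-labelled 24 h array B. Other losses came with the 75th percentile scaling (0.0673), with no filter (0.0721) and in the fit to those 2 groups alone (0.126). Before 4-OHT the vectors differed by -0.27 ± 0.10 (adjusted p = 0.116).

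The Nfkb1 probe was printed 10 times on each array, which gives a direct view of technical spread. The 10 spots of an array differed from each other with an SD of 0.081 to 0.214 on the log2 scale. On control array A at 0 h they ran from 4216 to 5814 scanned units, and on β-catenin-labelled array B at 24 h from 3467 to 5097.

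**Figure D4:**
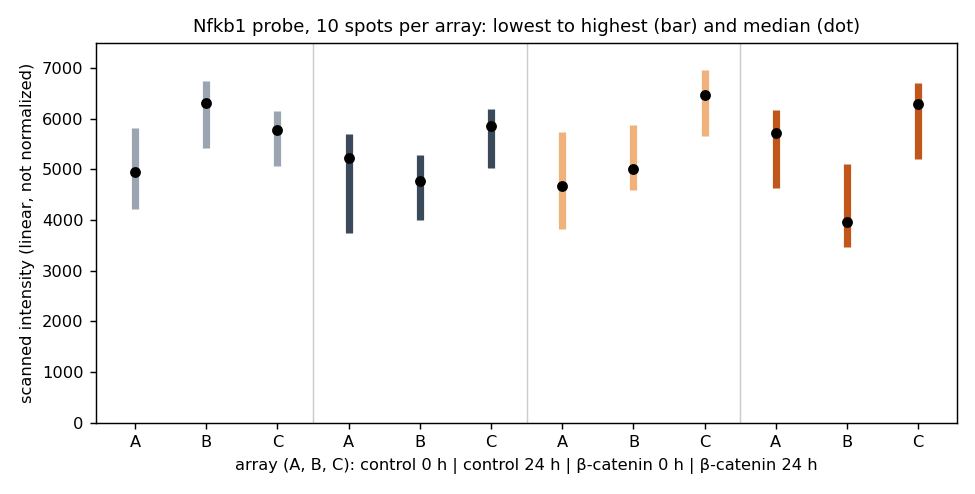
Scanned intensity (linear scale, before normalization) of the 10 spots of the Nfkb1 probe on each of the 12 arrays, as the range from lowest to highest (bar) and the median (dot), grouped by vector and time. The medians run from 3964 to 6472, and the ranges of the 4 groups overlap.

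The subunits of the NIK route rose with 4-OHT under both vectors. Relb, whose protein pairs with p52, read 10.21, 10.43 and 10.24 in control cells at 0 h and 11.34, 11.45 and 11.50 at 24 h. The β-catenin-labelled arrays read 9.98, 9.81 and 9.83 at 0 h and 10.45, 10.58 and 10.69 at 24 h. The 4 groups did not overlap, in the order control 24 h, β-catenin-labelled 24 h, control 0 h and β-catenin-labelled 0 h. It rose by 1.14 ± 0.10 in control cells (2.20-fold; adjusted p = 4.02e-06) and by 0.70 ± 0.10 in β-catenin-labelled cells (1.63-fold; adjusted p = 0.000491). Between vectors it was lower by 0.42 ± 0.10 at 0 h and by 0.86 ± 0.10 at 24 h.

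At 0 h that Relb call (adjusted p = 0.0179) was lost without control array B (0.0818), β-catenin-labelled array B (0.0773) or β-catenin-labelled array C (0.0693). The rise was smaller by 0.43 ± 0.14 in β-catenin-labelled cells, which missed the threshold (adjusted p = 0.091; 0.0398 to 0.187 over the alternatives). Nfkb2, the gene of p100 and p52, read 11.12, 11.26 and 11.32 in control cells at 0 h and 11.86, 11.63 and 11.83 at 24 h. For β-catenin-labelled cells the values were 11.04, 11.19 and 11.30 and then 11.70, 11.37 and 11.64. Both vectors overlapped at each time, and both 24 h groups lay above both 0 h groups. The rise was 0.54 ± 0.12 in control cells (1.45-fold; adjusted p = 0.00473) and 0.39 ± 0.12 in β-catenin-labelled cells (1.31-fold; adjusted p = 0.0435). The latter call was lost in 8 of the 12 fits that left out 1 array (0.0524 to 0.154). It was kept without control 0 h array A, control 24 h array A or B, or β-catenin-labelled 24 h array B, and lost with no filter (0.0617) and in the 2-group fit (0.0865).

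The genes of IκBα and IκBε, both cytoplasmic inhibitors, went opposite ways with 4-OHT in control cells, and both were lower in β-catenin-labelled cells at 24 h. Nfkbia read 15.24, 15.54 and 15.47 in control cells at 0 h and 14.96, 14.80 and 14.97 at 24 h. In β-catenin-labelled cells it read 13.92, 14.11 and 14.22 at 0 h and 14.24, 14.20 and 14.21 at 24 h. Control cells at 0 h stood highest, control cells at 24 h lay between, and both β-catenin-labelled groups lay below and overlapped each other. The fall with 4-OHT in control cells was 0.51 ± 0.11 on the log2 scale (adjusted p = 0.00415), and β-catenin-labelled cells were lower by 1.33 ± 0.11 at 0 h and 0.69 ± 0.11 at 24 h.

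Nfkbie read 9.67, 10.16 and 10.21 in control cells at 0 h and 11.79, 11.60 and 11.84 at 24 h. The β-catenin-labelled arrays read 10.14, 10.43 and 10.24 at 0 h and 11.13, 10.83 and 11.14 at 24 h. Both 0 h groups overlapped, and all arrays at 24 h lay above them, with control cells highest. The rise was 1.73 ± 0.15 in control cells (3.32-fold; adjusted p = 4.2e-06) and 0.76 ± 0.15 in β-catenin-labelled cells (1.70-fold; adjusted p = 0.00487). Between vectors the difference was 0.26 ± 0.15 at 0 h (adjusted p = 0.343) and -0.71 ± 0.15 at 24 h (adjusted p = 0.00674).

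The difference between both 4-OHT responses was tested directly, and 2 of the 10 members were called, 1 in each direction, against 7.17% of all genes (3.74% higher and 3.43% lower). The Nfkbie response was lower by 0.97 ± 0.21 in β-catenin-labelled cells (adjusted p = 0.0181), and the Nfkbia response was higher by 0.64 ± 0.15 (adjusted p = 0.0245). Without β-catenin-labelled 0 h array B the Nfkbie call was lost (0.0524) and no member was called. The Nfkbia call was lost in 7 of the 12 fits that left out 1 array (0.051 to 0.0645) and kept without control array A at 0 h, control array A or C at 24 h, β-catenin-labelled array C at 0 h or β-catenin-labelled array B at 24 h. For the other 8 members the difference was not called, with the widest interval that of Rel (-0.44 to 0.42). Rel lay below background on all 12 arrays, so its interval bounds no change in its expression.

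The nuclear IκB-like proteins act on DNA-bound NF-κB rather than in the cytoplasm. IκBζ (Nfkbiz) is needed in macrophages for a subset of secondary response genes, and Bcl-3 binds p50 and p52 dimers. Nfkbiz read 9.29, 9.42 and 9.26 in control cells at 0 h and 8.31, 8.41 and 8.45 at 24 h. For β-catenin-labelled cells the values were 8.39, 8.15 and 8.16 at 0 h and 7.79, 7.34 and 7.74 at 24 h, where array B lay below background. Control cells at 24 h overlapped β-catenin-labelled cells at 0 h, and the highest and the lowest group stood apart from these.

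Nfkbiz fell by 0.93 ± 0.12 in control cells (adjusted p = 0.000132) and by 0.61 ± 0.12 in β-catenin-labelled cells (at least 1.47-fold; adjusted p = 0.00573). It was 2.13-fold lower in β-catenin-labelled cells at 0 h (log2 difference -1.09 ± 0.12; adjusted p = 0.000123) and at least 1.64-fold lower at 24 h. It was the one member called in all 4 comparisons of 2 groups besides Relb. Bcl3 read 11.41, 11.42 and 11.53 in control cells at 0 h and 11.63, 11.85 and 11.77 at 24 h. In β-catenin-labelled cells it read 11.17, 11.12 and 11.07 and then 11.51, 11.77 and 11.72. β-catenin-labelled cells at 0 h lay below all other arrays.

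Bcl3 rose by 0.55 ± 0.10 in β-catenin-labelled cells (1.46-fold; adjusted p = 0.00224). In control cells the rise was 0.29 ± 0.10 (1.23-fold; adjusted p = 0.0469), and the difference between vectors at 0 h was -0.34 ± 0.10 (adjusted p = 0.0449). Each of these 2 calls was lost in 9 of the 12 fits that left out 1 array (0.0611 to 0.162 for the rise and 0.0524 to 0.146 for the difference) and kept without control 24 h array A or β-catenin-labelled 24 h array A or B. The rise was also lost with normexp and quantile normalization (0.0907), the 75th percentile scaling (0.177), no filter (0.069) and the 2-group fit (0.101). The difference at 0 h was lost with the 75th percentile scaling (0.0637) and no filter (0.0668).

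Tnfaip3 encodes A20, a ubiquitin-editing enzyme that shuts off signalling to the IκB kinase. It read 9.80, 9.91 and 9.62 in control cells at 0 h and 9.73, 9.96 and 10.13 at 24 h. The β-catenin-labelled arrays read 8.91, 8.94 and 8.91 at 0 h and 8.90, 9.28 and 8.98 at 24 h. All 6 control arrays lay above all 6 β-catenin-labelled arrays, and both times overlapped within each vector. The vectors differed by -0.86 ± 0.13 at 0 h (1.81-fold lower; adjusted p = 0.000933) and -0.89 ± 0.13 at 24 h (1.85-fold lower; adjusted p = 0.000521). The 4-OHT changes were 0.16 ± 0.13 (95% interval -0.12 to 0.44) and 0.13 ± 0.13 (-0.15 to 0.41).

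Genes that act upstream of NF-κB changed in both directions. Of 26 listed activating kinases and adaptors, 25 were measured and tested; 3 rose and 5 fell in control cells with 4-OHT, with a median of -0.01, where 11.9% of all genes rose and 10.8% fell. Map3k14, the gene of NIK, rose 3.38-fold (1.76 ± 0.14) in control cells and 1.68-fold (0.75 ± 0.14) in β-catenin-labelled cells, where it was 2.19-fold lower than in control cells at 24 h. It read 9.18 to 9.35 in control cells at 0 h, 10.71 to 11.19 at 24 h, 9.07 to 9.23 in β-catenin-labelled cells at 0 h and 9.71 to 10.04 at 24 h. Its level thus followed the order of Relb at 24 h, with control cells above β-catenin-labelled cells.

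Traf5, the gene of an adaptor of TNF receptors, rose at least 2.21-fold in control cells, from below background, and at least 1.05-fold in β-catenin-labelled cells, where 2 of the 3 arrays at 24 h were below background. Traf3, whose protein leads to the degradation of NIK, was higher in β-catenin-labelled cells by 0.39 ± 0.09 at 0 h and 0.35 ± 0.09 at 24 h. The call at 0 h was lost without control array A or B or β-catenin-labelled array B or C (0.0652 to 0.0891). At 24 h it was lost without control array B or C or β-catenin-labelled array A (0.0695 to 0.0809), and in the 2-group fit (0.102). Ikbke, the gene of the IκB kinase relative IKKε, fell 3.54-fold in control cells and 1.64-fold in β-catenin-labelled cells. It was 1.63-fold lower in β-catenin-labelled cells at 0 h and higher by 0.40 ± 0.12 at 24 h (adjusted p = 0.0363). That last call was lost with the replicate block (0.0592), no filter (0.0508), the 2-group fit (0.0965) and array brightness as a covariate (0.0646), and in 7 of 12 fits that left out 1 array (0.0501 to 0.111; kept without control 0 h array A, control 24 h array B or β-catenin-labelled 0 h array A or B or 24 h array A).

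Irak2, a kinase of Toll-like receptor signalling, fell by 1.26 ± 0.26 in control cells, with array A at 24 h (10.20) below arrays B and C (11.22 and 11.41). Birc2, the gene of a TRAF-bound ubiquitin ligase, fell under both vectors (-0.29 ± 0.08 in control cells and -0.45 ± 0.08 in β-catenin-labelled cells). Tab2, an adaptor of the kinase TAK1, was lower by 0.41 ± 0.09 in β-catenin-labelled cells at 24 h (lost in the 2-group fit, adjusted p = 0.0528). With 4-OHT Tab2 rose by 0.57 ± 0.09 in control cells, and its change of 0.18 ± 0.09 in β-catenin-labelled cells was not called. In β-catenin-labelled cells 2 of the 25 rose and 3 fell with 4-OHT, against 14.3% of all genes called. Between vectors 1 was higher and 1 lower at 0 h, where 11.0% of all genes were called, and 2 were higher and 3 lower at 24 h, where 18.6% were. These shares are near those of all genes.

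**Figure D5:**
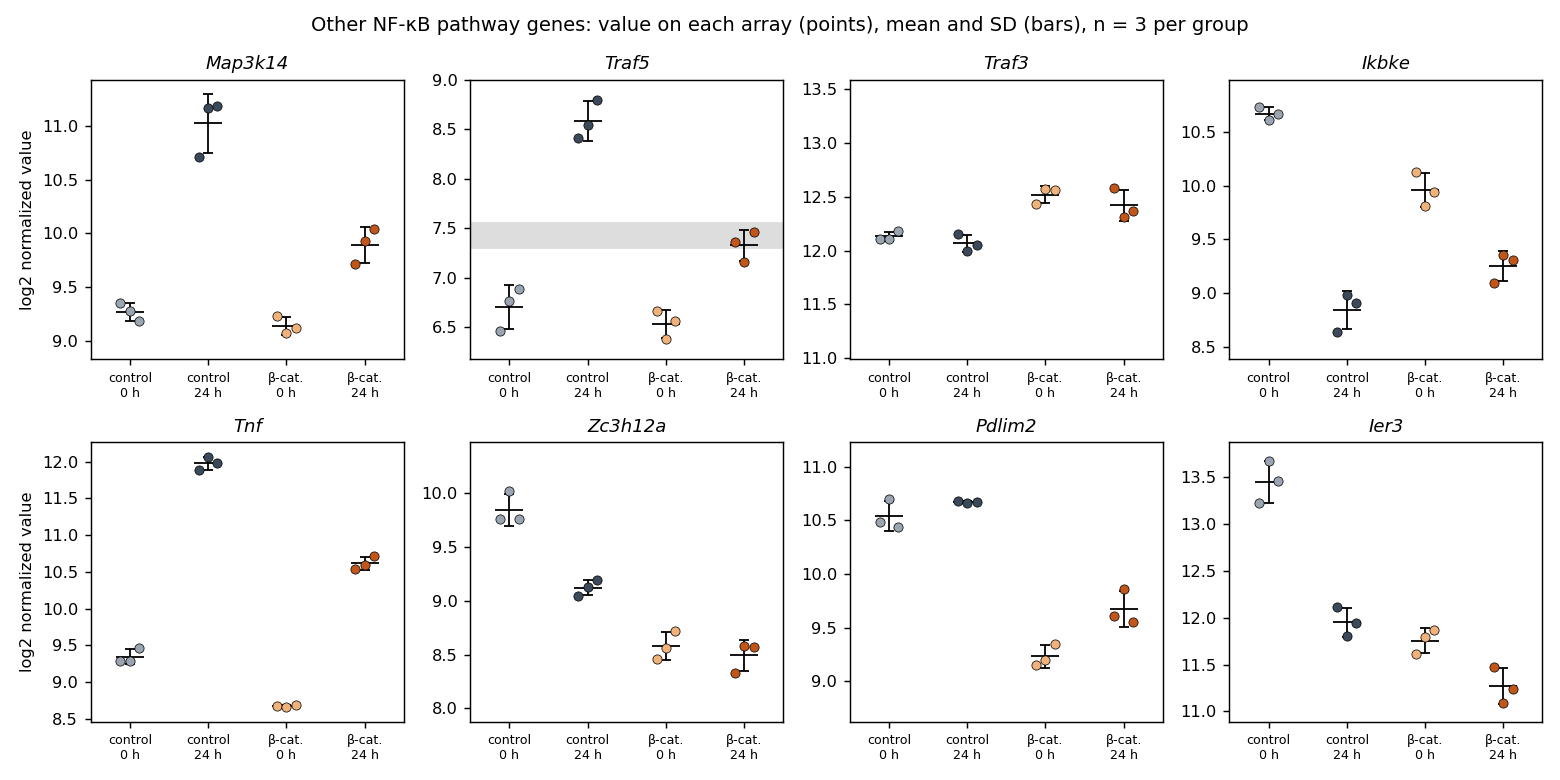
Log2 normalized value of 8 other genes of the pathway on each array (points) in the 4 groups, with the mean and SD of 3 arrays as bars and the range of background bounds in grey where it falls in view. Map3k14, Traf5 and Tnf are highest in control cells at 24 h, Ikbke, Zc3h12a and Ier3 are highest in control cells at 0 h, and Pdlim2 is lower in β-catenin-labelled cells at both times.

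Of 15 other listed NF-κB inhibitors, 12 were in the table and 11 were tested. The share of all genes called is as given for the kinases and adaptors. In control cells 1 rose with 4-OHT (Cyld, a deubiquitinase, 1.42-fold) and 4 fell, including Zc3h12a (1.65-fold), the gene of a ribonuclease that degrades inflammatory transcripts, Rnf11 (1.42-fold), an A20 partner, and Irak3 (1.41-fold), a brake on Toll-like receptor signalling. Also among the 4 was Tax1bp1, another A20 partner (-0.40 ± 0.08). In β-catenin-labelled cells 1 rose and 2 fell, with Tax1bp1 falling by 0.63 ± 0.08 and Irak3 by 0.33 ± 0.09. The Irak3 call was lost in the 2-group fit and without β-catenin-labelled array A, B or C at 0 h or B or C at 24 h (0.0533 to 0.113). Pdlim2, whose product targets nuclear RelA for degradation, rose by 0.44 ± 0.11; the call was lost without β-catenin-labelled array A or B at 0 h or B at 24 h (0.0541 to 0.0674).

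Between vectors 3 of these 11 inhibitors were lower at 0 h and 0 higher: Pdlim2 (2.47-fold), Zc3h12a (2.40-fold) and Rnf11 (1.37-fold). At 24 h Pdlim2 (1.99-fold) and Zc3h12a (1.55-fold) were lower and Nfkbib, the gene of IκBβ, was 1.35-fold higher, a call that was lost in the 2-group fit (0.0626). Zc3h12a read 9.76, 10.02 and 9.76 in control cells at 0 h and 8.46, 8.56 and 8.72 in β-catenin-labelled cells, the same direction as Nfkbia, Nfkbiz and Tnfaip3. Of the 5 genes of the β-TrCP ubiquitin ligase, which removes both IκBα and β-catenin, Fbxw11 fell by 0.60 ± 0.13 in control cells with 4-OHT. No other call was made in the 5 comparisons. In β-catenin-labelled cells Fbxw11 changed by -0.38 ± 0.13 (limma adjusted p = 0.0656). Rbx1 was at the scan ceiling on 5 of the 6 control arrays and on all 6 β-catenin-labelled arrays, so its changes were not measured.

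NF-κB target genes did not follow a single direction either. Of 34 listed targets, 26 passed the filter on dim probes; 10 rose and 7 fell in control cells with 4-OHT, with a median of 0.08, where 22.7% of all genes were called. The filter keeps a gene that is bright in only 1 group, so these counts do not describe the 8 targets left out. Of the 34, 11 lay below background on all arrays of both groups compared here, so some of the 26 tested were not measured. That number was 13 for the 4-OHT response of β-catenin-labelled cells. Between vectors it was 14 at 0 h and 11 at 24 h, and the counts below share this limit. Tnf read 9.29, 9.28 and 9.46 in control cells at 0 h and 11.89, 12.06 and 11.98 at 24 h, a 6.21-fold rise. For β-catenin-labelled cells the values were 8.67, 8.66 and 8.69 and then 10.54, 10.59 and 10.71, a 3.85-fold rise. It was lower in β-catenin-labelled cells at both times (1.59-fold at 0 h and 2.57-fold at 24 h), and the groups did not overlap.

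Bcl2a1b, a survival gene with close paralogs that its probe may also read, rose at least 155-fold in control cells, with 1 array at the scan ceiling, and 40.1-fold in β-catenin-labelled cells. Mmp9, the gene of a gelatinase, rose at least 37.2-fold and at least 3.48-fold, and Icam1, an adhesion gene, at least 1.75-fold and at least 1.59-fold, all from below background. Ier3, an immediate-early survival gene, fell 2.83-fold in control cells and was 3.23-fold lower in β-catenin-labelled cells at 0 h. In β-catenin-labelled cells it fell by 0.49 ± 0.14, a call that was lost without control 0 h array C or β-catenin-labelled array B or C of either time (0.0516 to 0.125). The chemokine gene Ccl3 fell 2.56-fold in control cells and was 2.80-fold lower in β-catenin-labelled cells at 0 h.

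In β-catenin-labelled cells 8 of the 26 tested targets rose and 3 fell with 4-OHT, against 14.3% of all genes called, with Vcam1, an adhesion gene, falling 1.97-fold. Between vectors 4 were higher and 10 lower at 0 h, where 4.38% of all genes were higher and 6.62% lower. Lcn2, which binds bacterial siderophores, was 3.67-fold lower, and Vcam1 was 3.78-fold and Bcl2a1b 1.92-fold higher. At 24 h 3 were higher and 10 lower in β-catenin-labelled cells, where 8.68% of all genes were higher and 9.88% lower. Mmp9 was 11.1-fold lower and the chemokine gene Cxcl2 at least 1.48-fold lower, while Saa3, an acute-phase gene, was 2.98-fold and Vcam1 at least 2.81-fold higher.

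Genes outside the pathway with patterns close to a member were found by Pearson's correlation over the 12 arrays, given here as a description, since all points share 4 groups. Nfkbia was closest to Csng (r = 0.987), a casein gene now named Csn1s2a, and Tgm1 (0.98), a transglutaminase gene. Nfkbie was closest to Cmtm6 (0.988) and Hps3 (0.985), Relb to Gcnt1 and Plcd1 (0.992 each), and Nfkb2 to Bri3 (0.991) and Whsc1 (0.986). Nfkbiz was closest to Notch1 (0.978) and Snx24 (0.976), Tnfaip3 to Arrdc3 (0.977), and Bcl3 to Synj2 (0.966) and Pxn (0.964). Rela was closest to Tbc1d1 (0.969) and Pcid2 (0.967), and Nfkb1 to Mtbp (0.907) and Ccne1 (0.873). Nfkb1 had the lowest values of these 9 genes.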

How the data were processed

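RNA from 12 PUER samples had been hybridised to Agilent mouse whole genome arrays, 1 Cy3 array per sample. The deposited non-normalized table holds the scanned intensity of 43379 spots per array, for 41174 probes, not normalized per the file headers and linear by its values. A separate table, normalized by the authors per the file headers, was deposited for 27676 gene names, and the range of its values puts them on the log2 scale. Per the submitters' processing notes limma was used; its version, the method and the choice of probe per gene are not given in the sources used here. Values of the series matrix equal those of the normalized table (largest difference 0).

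Genes that reached each array's 30th percentile on 3 or more arrays were kept (22461). Group means over all 12 arrays were fitted with limma 3.58.1 (R 4.3.3), with two-sided tests whose p-values were adjusted (Benjamini-Hochberg) across the genes kept. The fit was tested on simulated data. A fold that involves an array below background, or a spot at the scan ceiling, is printed as "at least", with values below the bound replaced by it. The members and gene lists were chosen with earlier results of these data known. All members were named; from each other pathway list, per comparison, up to 4 called genes with separate groups and the largest change, and up to 2 called against the list's main direction; and for each member the 2 genes closest in correlation (1 of these is not reported here). For the difference between responses, called genes of these lists were named after their values were seen. Symbols of the listed genes were matched through RefSeq synonyms (Tab2 is listed as Map3k7ip2, Adgre1 as Emr1).

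The letters A, B and C recur in every group. Deviations from the group means correlated by letter at 0.15 to 0.19 for all 3 letters between both vectors at 24 h. These values are low and the labels give no pairing, so whether the letters pair those samples was not established. The main fit has no term for the letter, which the replicate block below adds. In the other comparisons at least 1 letter correlated at or below 0.08. Alternatives were normexp (offset 50) with quantile normalization, 75th percentile scaling, a stricter filter (50th percentile) or none, array weights, a replicate block, a trend and robust prior, only the 2 groups compared, array brightness as a covariate, and each array left out. No count of reads exists for arrays, and their number limits the precision.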

Additional observations from a re-analysis of the deposited data

Results flagged for a closer look

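The 4-OHT response differed between β-catenin-labelled and control cells, by limma's test of the difference itself at an adjusted p below 0.05, for 15 genes of the family and its pathway lists. These values are the response of β-catenin-labelled cells less that of control cells, on the log2 scale. Among the members, Nfkbia differed by 0.64 ± 0.15 and Nfkbie by -0.97 ± 0.21. Among upstream genes, Map3k14 differed by -1.0 ± 0.19 and Ikbke by 1.11 ± 0.17. The fitted value for Traf5 was -1.08 ± 0.20, but it lay below background on all 6 arrays at 0 h and on 2 of the 3 β-catenin-labelled arrays at 24 h, so the size of that difference is not measured. Of the inhibitors outside the family, Zc3h12a differed by 0.64 ± 0.16, a call that was lost in 7 of 12 fits that left out 1 array (adjusted p = 0.0505 to 0.0755; kept without control 0 h array A or C, control 24 h array A, β-catenin-labelled 0 h array C or 24 h array A), with normexp and quantile normalization and with the 75th percentile scaling. Of the 26 target genes tested, 4 had a lower response in β-catenin-labelled cells: Tnf (-0.69 ± 0.13), Ccl2 (-0.93 ± 0.19), Bcl2a1b (-1.95 ± 0.19) and Mmp9 (-2.90 ± 0.26). Mmp9 lay below background on all arrays at 0 h, and Bcl2a1b had 1 control array at 24 h at the scan ceiling, so these 2 values depend on readings at the limits of the scale. Another 5 had a higher one: Ccl3 (1.42 ± 0.19), Ccl4 (1.41 ± 0.16), Ier3 (1.01 ± 0.20), Saa3 (1.10 ± 0.18) and Nos2 (1.03 ± 0.24). Nos2 lay below background on all 12 arrays, so its value is no measured change, and leaving out control 0 h array A or B, control 24 h array B, β-catenin-labelled 0 h array A or 24 h array A or B ended the call (0.0539 to 0.059).

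At 24 h Ccl3 differed between vectors by -0.06 ± 0.14 (adjusted p = 0.797) and Ccl4 by 0.02 ± 0.11 (adjusted p = 0.919). Groups of 3 arrays were too small for the test of single outlying arrays.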

How the results depend on the processing

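Over the 10 members, 5 comparisons and the alternatives, 969 of 1035 values stayed on the same side of the threshold, 60 lost a call, 6 gained one and 0 of the called values turned direction. Some values that were not called changed sign. Of the lost calls, 47 came from leaving out an array, which also leaves fewer samples. Array weights gained Nfkb1 in the β-catenin effect at 0 h (adjusted p = 0.0337) and in the difference between responses (0.0376), array brightness as a covariate gained Rela in β-catenin-labelled cells (0.0498), and normexp with quantile normalization, the stricter filter and the trend and robust prior gained Relb in the difference (0.0398, 0.0404 and 0.048). For the other named genes, 51 of 1309 values lost a call. The members called ranged over the fits that left out 1 array from 5 to 7 in control cells and 4 to 5 in β-catenin-labelled cells, from 3 to 5 for the β-catenin effect at 0 h, and from 0 to 2 for the difference between responses.

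The count over all genes rose with array weights from 3220 to 5060 for the response of β-catenin-labelled cells, from 2469 to 4350 for the β-catenin effect at 0 h and from 1610 to 2810 for the difference. In the 2-group fit it dropped from 4169 to 2551 for the β-catenin effect at 24 h. Leaving out 1 array gave 1529 to 2907 genes for the β-catenin effect at 0 h. The causes of these shifts were not tested. With the replicate block, 6 members were called in control cells, 5 in β-catenin-labelled cells, 4 at 0 h, 5 at 24 h and 2 in the difference, and Bcl3 lost its calls in control cells (0.0526) and at 0 h (0.054). Of the named genes, Ier3 in β-catenin-labelled cells (0.0646) and Ikbke at 24 h (0.0592) also lost theirs, and the block changed no other call. Signal over background limits Rel on all arrays and Nfkbiz on 1.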
